A study of Mus musculus with 24 samples.

Results

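Kit+ CD45+ cells were compared with Kit- CD41+ cells from mouse embryos in which the Notch ligand Dll4 was blocked by an antibody. The 8 libraries were chosen by their titles, as 4 libraries of CD31+ Kit+ CD45+ cells and 4 of CD31+ Kit- CD41+ CD45- cells, both under anti-Dll4, of 24 RNA-seq libraries in all. A further 8 libraries of the same populations under a control antibody (anti-human IgG) were used to say which differences hold with Dll4 blocked and which depend on the antibody. The remaining 8 libraries, of CD31+ Kit+ CD45- cells, were not compared. They entered the scaling of counts, the filter on low counts and the estimate of the spread.

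All groups came from C57BL/6J embryos at E10.5 (mid-gestation). Each embryo had an antibody injected into the heart and was then held for 5 h at 37 °C and 5% CO2 in a myeloid long-term medium that contained the same antibody at 5 µg/ml, IL-3 at 10 ng/ml and hydrocortisone at 10 µM. The cytokine, the steroid and the culture were thus shared by the anti-Dll4 and IgG groups. Cells were freed with collagenase and sorted by flow cytometry, and their polyA RNA was read after long-distance PCR of the cDNA. The series' title asks how Dll4 bears on the recruitment of hemogenic cells to aortic clusters and on blood stem cells.

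In the mid-gestation embryo, blood cells arise from hemogenic endothelium, whose cells carry CD31 (Pecam1), turn on Kit and lastly gain the leukocyte antigen CD45 (Ptprc) as they form clusters on the wall of the aorta. CD41 (Itga2b) marks both early blood progenitors and megakaryocytes, the cells that shed platelets; CD41 is one chain of the fibrinogen receptor that platelets use to aggregate. Dll4 on endothelium binds Notch receptors of neighbouring cells, whose cleaved intracellular part joins Rbpj and turns on genes such as Hes1 and Hey1.

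Library totals ran from 8973458 to 11115548 counts in Kit+ CD45+ and from 9941002 to 10787967 in Kit- CD41+ (exact permutation p = 0.4, two-sided, n = 4 per group). Kit+ CD45+ replicate 1 stood apart from the other 3 libraries of its group, with a chi-square per degree of freedom of 40.7 to 48.8 against each of them, where those 3 gave 17.1 to 21.8 among themselves; no 2 libraries agreed within sampling noise. Under IgG, too, Kit+ CD45+ replicate 1 stood apart, at 38.8 to 53.8 against 14.6 to 17.5 among the other 3. Both replicate 1 libraries under anti-Dll4 carried Y-linked reads (Eif2s3y with 1216 and 1011 counts, and 1 Xist count each), while the other 14 libraries of the 2 populations had 1455 to 2705 Xist counts, so sex was balanced between the 2 populations but not between the antibodies. The share of globin genes was 0.0148 ± 0.00604% in Kit+ CD45+ libraries and 11.7 ± 2.72% in Kit- CD41+ (SD, n = 4, exact permutation p = 0.0286, the smallest that 4 against 4 allows, 0.0715 adjusted over 5 measures). The mitochondrial share was 0.901 ± 0.15% and 0.811 ± 0.0768% (exact permutation p = 0.343, n = 4). The labels do not give the number of embryos behind a library, so the p-values rest on the spread among these libraries alone, which may in part be technical. Reads carry no molecular identifiers, so floors and counting intervals cover counting error only.

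The sorting genes separated the 2 populations as their names require. Levels are given in CPM, read counts scaled to library size with TMM factors, in the order of replicates 1 to 4. Kit (ENSMUSG00000005672.12, chr5:75574916-75656722, mm10), the receptor for stem cell factor, stood at 62.96, 62.8, 51.1 and 79.8 CPM in Kit+ CD45+ and at 1.91, 0.907, 1.77 and 2.89 CPM in Kit- CD41+. Ptprc (ENSMUSG00000026395.16, chr1:138062861-138175708), the CD45 phosphatase, stood at 59.2, 108, 65.98 and 83.3 CPM in Kit+ CD45+ and at 0, 0, 0 and 0.8896 CPM in Kit- CD41+. Itga2b (ENSMUSG00000034664.13, chr11:102453297-102470122), the integrin chain CD41, stood at 9.59, 21.6, 43.6 and 20.7 CPM in Kit+ CD45+ and at 360.5, 459.6, 583 and 305 CPM in Kit- CD41+. Every Kit+ CD45+ library was above every Kit- CD41+ library for Kit and Ptprc, and below all of them for Itga2b. Pecam1 (ENSMUSG00000020717.19, chr11:106654217-106750628), the CD31 adhesion molecule that all sorted cells shared, stood at 128, 267, 201 and 262 CPM in Kit+ CD45+ and at 48.2, 59.1, 57.2 and 44.8 CPM in Kit- CD41+. Its ranges did not overlap either, with Kit+ CD45+ 4.1-fold higher (log2 2.04, SE 0.29, edgeR adjusted p = 4.47e-06). The fold of Kit was 34.3 (log2 5.10, SE 0.34, edgeR adjusted p = 1.08e-10) and that of Itga2b 17.9 in the other direction (log2 -4.16, SE 0.40, edgeR adjusted p = 2.5e-08); as these genes defined the sort, their difference checks the labels only. Here and below, fold changes are log2 of Kit+ CD45+ over Kit- CD41+ with their standard error (SE), and adjusted p-values are those of edgeR's quasi-likelihood test with Benjamini-Hochberg adjustment over all genes tested.

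With Dll4 blocked, cells of the 2 gates differed in opposite directions for most tested members of several gene lists. Most platelet receptors, integrin linkage proteins, globins and heme enzymes were lower in Kit+ CD45+ cells, as for Clec1b, the platelet receptor CLEC-2 (8.85-fold). Most macrophage genes, myeloid transcription factors, progenitor genes and endothelial genes were higher, as for Spi1, the gene of the myeloid factor PU.1 (6.14-fold), and Cd34 (40.7-fold). Of 25 genes of DNA replication 2 passed the test.

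Across the transcriptome, 5875 of 15618 tested genes (37.6%) passed an adjusted p of 0.05, of which 3180 (20.4%) were higher and 2695 (17.3%) lower in Kit+ CD45+. The median log2 fold change of all tested genes was 0.059. A difference of more than 2-fold was found for 3915 of these genes (25.1%), 2246 higher and 1669 lower, and a test against a fold of 1.5 called 3401. In 5799 genes (37.1%) the 4 libraries of one population did not overlap the 4 of the other. Without Kit+ CD45+ replicate 1, which stood apart, 5795 genes passed. With the 8 compared libraries alone, which keep fewer genes past the filter on low counts, 5596 of 13747 passed. Each percentage is the background for the gene lists below, whose members were chosen with earlier results of these data known. List members given per library below were drawn from the 4 with the smallest p in this same contrast. Their ranges were thus likely to be apart, and they do not stand for their whole list.

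The 10 genes with the smallest p among those higher in Kit+ CD45+ were Lcp1, Upp1, Cd93, Ramp2, Kit, Ccl3, Rnf130, Ccl4, Rasgrp3 and Col4a1. Lcp1 (chr14:75131101-75230842), which encodes L-plastin, the actin bundler of leukocytes, stood at 149.7, 229, 269.8 and 211 CPM in Kit+ CD45+ and at 3.01, 3.83, 2.92 and 5.004 CPM in Kit- CD41+ (log2 5.86, SE 0.34, edgeR adjusted p = 2.27e-11). Upp1 (chr11:9118103-9136170), uridine phosphorylase of the pyrimidine salvage route, stood at 141, 201, 108 and 192 CPM in Kit+ CD45+ and at 4.32, 4.74, 4.804 and 5.56 CPM in Kit- CD41+ (log2 5.05, SE 0.32, edgeR adjusted p = 6.76e-11). In both genes the lowest Kit+ CD45+ library was far above the highest Kit- CD41+ one. Rasgrp3 (chr17:75435905-75529043), an exchange factor that activates Ras and Rap proteins, stood at 72.6, 74.4, 80.6 and 98.7 CPM in Kit+ CD45+ and at 0.301, 1.81, 0.627 and 1.56 CPM in Kit- CD41+ (log2 6.24, SE 0.45, edgeR adjusted p = 2.98e-10). Col4a1 (chr8:11198423-11312826), a collagen chain of basement membranes, stood at 86.3, 89.4, 91.9 and 111 CPM in Kit+ CD45+ and at 11.6, 10.1, 8.14 and 8.45 CPM in Kit- CD41+ (log2 3.31, SE 0.24, edgeR adjusted p = 3.17e-10); its start overlaps that of Col4a2. Rnf130 (chr11:50025346-50104758), a membrane-bound ubiquitin ligase, differed least of the 10, at 263, 243, 215 and 239 CPM in Kit+ CD45+ and at 66.7, 51.6, 54.1 and 64.2 CPM in Kit- CD41+ (log2 2.02, SE 0.14, edgeR adjusted p = 1.24e-10). Its libraries were close together within each population, and no ranges overlapped for any of these 5 genes.

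The 10 genes with the smallest p among those lower in Kit+ CD45+ were Cideb, Alas2, Hsd3b6, Clec1b, Ilk, Lims1, Tspan32, Actn1, Taf10 and Prkca. Cideb (chr14:55754045-55758458), a lipid-droplet protein, stood at 2.33, 2.09, 3.01 and 1.47 CPM in Kit+ CD45+ and at 74.7, 56.6, 72.8 and 67.3 CPM in Kit- CD41+ (log2 -4.93, SE 0.25, edgeR adjusted p = 7.93e-12); it overlaps Nop9, and as the strand used for counting is not given in the sources used here, reads of the 2 genes may not be told apart. Hsd3b6 (chr3:98805504-98814443), a steroid-converting dehydrogenase, stood at 0, 0, 0.08602 and 0 CPM in Kit+ CD45+ and at 79.4, 136, 117 and 98.8 CPM in Kit- CD41+. It had 1 count in all Kit+ CD45+ libraries together against 4147 in Kit- CD41+, a ratio of 5341 (counting interval 958 to 211014). Hsd3b6 was thus read in 1 Kit+ CD45+ library, and Cideb at a low level in all 4. Tspan32 (chr7:143005046-143019644), a tetraspanin of blood cells that binds the platelet integrin, stood at 55.4, 59.03, 56 and 42.4 CPM in Kit+ CD45+ and at 901, 823, 929 and 799 CPM in Kit- CD41+ (log2 -4.02, SE 0.24, edgeR adjusted p = 5.01e-11). Prkca (chr11:107933387-108343928), the protein kinase C of platelet activation, stood at 9.69, 17.1, 20.2 and 11.2 CPM in Kit+ CD45+ and at 227, 195, 179 and 173 CPM in Kit- CD41+ (log2 -3.73, SE 0.23, edgeR adjusted p = 5.47e-11). Both are genes of platelet signalling, and they were read in every Kit+ CD45+ library as well; they overlap the genes Tspan32os and Apoh. Actn1 (chr12:80167547-80260371), the actin crosslinker alpha-actinin, stood at 17.5, 20.4, 21.2 and 15.4 CPM in Kit+ CD45+ and at 83.5, 78.1, 85.5 and 76.3 CPM in Kit- CD41+ (log2 -2.12, SE 0.13, edgeR adjusted p = 5.13e-11). Taf10 (chr7:105739393-105744361), a subunit of the general factor TFIID, stood at 313, 345, 334 and 334 CPM in Kit+ CD45+ and at 1669.6, 1705, 1651 and 1532 CPM in Kit- CD41+ (log2 -2.31, SE 0.14, edgeR adjusted p = 5.13e-11); it overlaps Ilk on the opposite strand, so its reads may not be told apart from those of Ilk. All 6 genes were higher in every Kit- CD41+ library than in any Kit+ CD45+ library.

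**Figure D1:**
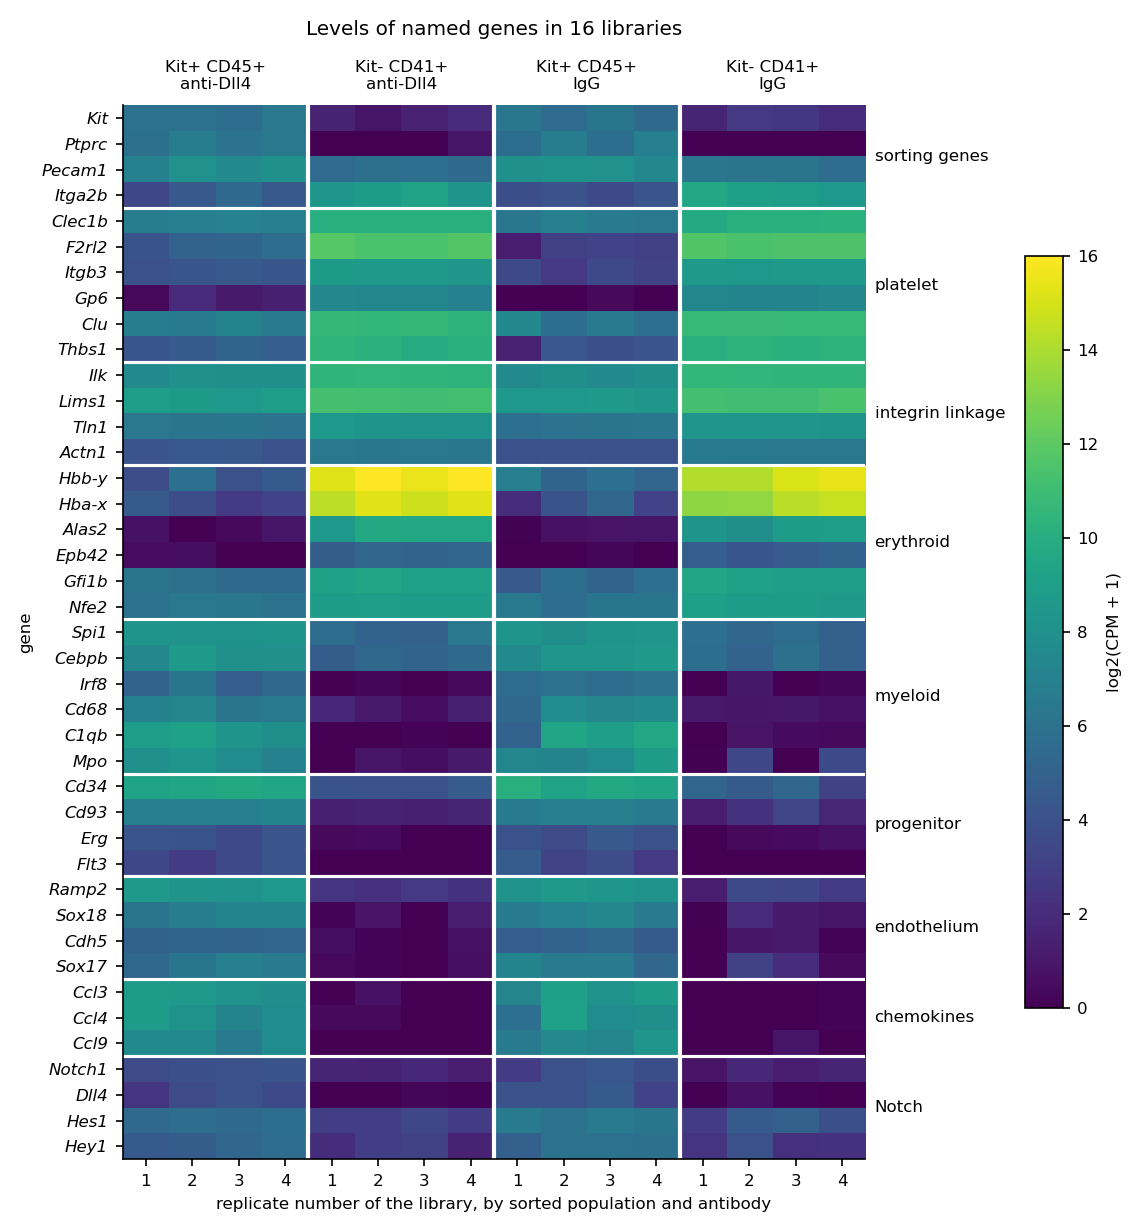
Levels of 41 named genes (rows) in 16 libraries (columns), as log2(CPM + 1) on a colour scale from 0 (dark) to 16 (yellow), by sorted population, antibody and replicate number. Under both antibodies, platelet, integrin linkage and erythroid rows are brighter in the Kit- CD41+ columns. Myeloid, progenitor, endothelial and chemokine rows are brighter in the Kit+ CD45+ columns under both. The chemokine rows are Ccl3, Ccl4 and Ccl9, while the platelet chemokines Pf4 and Ppbp, which are not shown, were lower in Kit+ CD45+.

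Platelet receptors were lower in Kit+ CD45+. Of 20 tested members 17 were lower, none higher, and 3 did not pass (Itgb1, Itga6 and P2ry12, log2 0.13, -0.38 and -0.67), with a median log2 fold change of -3.39. Clec1b (chr6:129397297-129409335), the receptor CLEC-2 through which platelets bind podoplanin, stood at 105, 120.3, 135 and 118 CPM in Kit+ CD45+ and at 1104, 1046, 1026 and 1054 CPM in Kit- CD41+, 8.85-fold lower in Kit+ CD45+ (log2 -3.15, SE 0.18, edgeR adjusted p = 1.55e-11); its end overlaps the start of Clec9a. F2rl2, the receptor PAR3 that presents thrombin to other receptors of platelets, stood at 17.1, 31.8, 35.3 and 51.7 CPM in Kit+ CD45+ and at 3675, 2835, 2864 and 3397 CPM in Kit- CD41+ (log2 -6.55, SE 0.42, edgeR adjusted p = 6.8e-11); it lies within Iqgap2 on the opposite strand. Both genes were low in all 4 Kit+ CD45+ libraries and still at 17.1 CPM or more there. Itgb3, the integrin chain that pairs with CD41, stood at 14.5, 18.1, 20.8 and 18.7 CPM in Kit+ CD45+ and at 426, 394, 387 and 352 CPM in Kit- CD41+ (log2 -4.43, SE 0.34, edgeR adjusted p = 7.77e-10). Gp6, the collagen receptor, stood at 0.279, 2.87, 1.204 and 1.61 CPM in Kit+ CD45+ and at 167, 163, 162 and 128 CPM in Kit- CD41+ (log2 -6.65, SE 0.56, edgeR adjusted p = 2.57e-09). The ranges of all 4 genes were apart, and only Gp6 came near 0 in a Kit+ CD45+ library. The subunits of the receptor for von Willebrand factor were lower as well, with log2 values of -5.63 for Gp1ba, -6.18 for Gp1bb, -5.87 for Gp9 and -5.38 for Gp5. In bulk RNA of sorted cells, fewer cells of a type and less RNA of a gene per cell cannot be told apart. The summed level of the list was 1246 to 1494 CPM in Kit+ CD45+ libraries and 12827 to 14202 CPM in Kit- CD41+ libraries, and no member was at 0 in either.

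Granule and release genes followed the same direction, with 16 of 20 lower, 1 higher and 3 not passing (median -1.93). Rab27b, the small GTPase that docks dense granules, stood at 22.3, 38.8, 68.99 and 34.5 CPM in Kit+ CD45+ and at 1828, 1682, 1544 and 1295 CPM in Kit- CD41+ (log2 -5.27, SE 0.40, edgeR adjusted p = 6.93e-10). Clu, the secreted chaperone clusterin that is stored in alpha granules, stood at 106, 93.3, 139 and 91.8 CPM in Kit+ CD45+ and at 1642, 1532, 1644 and 1311 CPM in Kit- CD41+ (log2 -3.83, SE 0.30, edgeR adjusted p = 9.28e-10). Thbs1, the adhesive granule protein thrombospondin, stood at 18.2, 21.8, 35.4 and 26.7 CPM in Kit+ CD45+ and at 1434, 1227, 969 and 1148 CPM in Kit- CD41+ (log2 -5.55, SE 0.45, edgeR adjusted p = 1.61e-09). Unc13d, the priming factor of granule release, stood at 15.4, 13.01, 8.602 and 6.03 CPM in Kit+ CD45+ and at 111, 97.3, 85.1 and 89.4 CPM in Kit- CD41+ (log2 -3.16, SE 0.27, edgeR adjusted p = 3.22e-09). None of these 4 genes had overlapping ranges. The platelet chemokines Pf4 (-5.99) and Ppbp (-6.83) showed the largest fitted differences of the list, and Vwf (-2.06) and Mmrn1 (-1.57), which endothelium also makes, were lower too. The member that was higher was Sparc (log2 3.22, edgeR adjusted p = 2.14e-08), a matrix protein made by many cells, and Selp, the adhesion receptor P-selectin of platelets and endothelium, did not pass (log2 0.37, edgeR adjusted p = 0.67).

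The 4 promoters printed here belong to the member with the smallest p, among those with an entry in the RefSeq promoter table (GRCm38.p6), of the platelet receptor, platelet granule, myeloid transcription factor and macrophage lists; they are shown because these lists carry the contrast between the populations. Each runs from 250 bases before to 50 after the annotated start, 300 bases in all. Capitals mark matches, on either strand, to 4 motifs: AGATAA (known from GATA factors), GAGGAA (known from PU.1, the product of Spi1), CGGAAG (known from ETS factors) and TGTGGT (known from Runx factors); the motifs share no letters at the matches shown. Clec1b lies at chr6:129397047-129397346 on the plus strand, Slc35d3 at chr10:19851410-19851709 on the minus strand, Cebpb at chr2:167688665-167688964 on the plus strand and Cd68 at chr11:69666121-69666420 on the minus strand.
Clec1b: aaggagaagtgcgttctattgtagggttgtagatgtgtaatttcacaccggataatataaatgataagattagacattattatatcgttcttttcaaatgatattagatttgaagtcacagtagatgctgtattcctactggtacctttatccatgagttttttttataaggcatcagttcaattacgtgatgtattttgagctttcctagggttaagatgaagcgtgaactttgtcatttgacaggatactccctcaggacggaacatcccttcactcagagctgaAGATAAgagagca
Slc35d3: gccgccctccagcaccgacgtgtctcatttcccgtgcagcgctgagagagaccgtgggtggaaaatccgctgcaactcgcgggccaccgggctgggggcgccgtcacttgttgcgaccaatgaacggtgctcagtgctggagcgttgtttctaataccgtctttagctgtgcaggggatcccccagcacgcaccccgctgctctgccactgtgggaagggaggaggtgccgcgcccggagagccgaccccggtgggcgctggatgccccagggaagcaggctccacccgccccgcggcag
Cebpb: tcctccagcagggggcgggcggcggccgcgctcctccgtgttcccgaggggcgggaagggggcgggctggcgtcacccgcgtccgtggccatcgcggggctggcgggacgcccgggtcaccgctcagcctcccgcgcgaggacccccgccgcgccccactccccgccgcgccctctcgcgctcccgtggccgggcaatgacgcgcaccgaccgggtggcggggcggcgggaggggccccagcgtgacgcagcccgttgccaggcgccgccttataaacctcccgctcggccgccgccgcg
Cd68: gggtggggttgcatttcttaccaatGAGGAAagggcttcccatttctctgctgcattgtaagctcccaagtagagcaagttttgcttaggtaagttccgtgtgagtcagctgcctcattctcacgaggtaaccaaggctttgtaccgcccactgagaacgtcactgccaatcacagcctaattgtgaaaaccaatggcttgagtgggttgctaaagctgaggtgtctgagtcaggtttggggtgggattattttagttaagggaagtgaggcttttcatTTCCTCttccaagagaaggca
The Clec1b window, with 36.3% G and C, held 1 AGATAA, 38 bases after the start. The Slc35d3 window (67.7% G and C), from the gene of a sugar transporter needed for dense granules (log2 -4.25), held none of the 4 motifs, nor did the Cebpb window (80.7%). The Cd68 window (47.7%) held 2 GAGGAA, 225 bases before the start and, on the reverse strand, 30 bases after it. Among the 17 platelet receptor genes with an entry, 6 windows (35.3%) held AGATAA, against 6.65% of the windows of 10840 tested genes and 11.2% of all 32851 windows in the table. Among 15 macrophage genes, 10 (66.7%) held GAGGAA, against 26.8% of tested genes and 28.3% of all windows. The other motifs and the base content were unlike those of the tested genes in part, with no test. GAGGAA stood in 7 platelet receptor windows (41.2%) and TGTGGT in 4 macrophage windows (26.7%, against 12.5% of tested genes). CGGAAG was rarer, in 5.88% of platelet receptor and 6.67% of macrophage windows against 30.7% of tested genes. TGTGGT stood in 5.88% of platelet receptor windows. The median content of G and C was 57.0% for platelet receptors, 50.3% for macrophage genes and 60.7% for tested genes. No window of the 12 myeloid transcription factor genes and 1 of the 15 granule genes held AGATAA. Over all genes called higher in Kit+ CD45+, 6.51% held AGATAA, 31.7% GAGGAA, 22.9% CGGAAG and 12.9% TGTGGT, and over those called lower 7.2%, 24.9%, 30.4% and 13.3%. A match is a run of letters and not a bound site.

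The proteins that tie integrins to the cytoskeleton were lower in 15 of 20 members, with 3 higher and 2 not passing (median -2.46). Ilk, the scaffold integrin-linked kinase, stood at 188, 256, 252 and 245 CPM in Kit+ CD45+ and at 1409.6, 1497, 1416 and 1291 CPM in Kit- CD41+ (log2 -2.58, SE 0.15, edgeR adjusted p = 1.57e-11). Its partner Lims1 stood at 483, 415, 371 and 478 CPM in Kit+ CD45+ and at 2541, 2306, 2139.7 and 2246 CPM in Kit- CD41+ (log2 -2.40, SE 0.14, edgeR adjusted p = 3.26e-11). Tln1, talin, which switches integrins on, stood at 80.3, 70.7, 73.5 and 67 CPM in Kit+ CD45+ and at 364, 316, 285 and 279.7 CPM in Kit- CD41+ (log2 -2.09, SE 0.14, edgeR adjusted p = 8.44e-11); it overlaps Creb3. The 3 genes differed by a near-equal fold, with ranges far apart. Larger differences were fitted for Fermt3, the kindlin of blood cells (-3.34), Rasgrp2, the exchange factor for the integrin activator Rap1b (-3.53), and the platelet tubulin Tubb1 (-7.03). The members that were higher in Kit+ CD45+ were Lcp1, Mical2, an enzyme that disassembles actin (log2 4.04), and Pls3, the plastin of non-blood cells (log2 1.09).

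Transcription factors of the erythroid and megakaryocyte lines were lower in 9 of 15 members and higher in none, and 6 did not pass (median -1.30). Gfi1b, a repressor needed in both lines, stood at 69.95, 57.8, 46.1 and 45.2 CPM in Kit+ CD45+ and at 574, 698, 574 and 564 CPM in Kit- CD41+ (log2 -3.46, SE 0.30, edgeR adjusted p = 4.42e-09). Nfe2, the factor of platelet release and globin transcription, stood at 64.3, 84.6, 78.5 and 63.4 CPM in Kit+ CD45+ and at 436, 478, 449 and 465 CPM in Kit- CD41+ (log2 -2.65, SE 0.23, edgeR adjusted p = 4.75e-09). Tal1 stood at 8.94, 18.8, 8.86 and 7.998 CPM in Kit+ CD45+ and at 65.2, 69.1, 71.3 and 60.05 CPM in Kit- CD41+ (log2 -2.57, SE 0.26, edgeR adjusted p = 3.39e-08), and Zfpm1, the cofactor FOG-1 of Gata1, at 9.31, 21.5, 18.9 and 13.4 CPM in Kit+ CD45+ and at 76.02, 95.3, 99.4 and 66.05 CPM in Kit- CD41+ (log2 -2.41, SE 0.29, edgeR adjusted p = 4.35e-07). All 4 were expressed in every Kit+ CD45+ library at a lower level, and no ranges overlapped. Gata1 itself (-3.72), Klf1, the erythroid activator (-2.45), Lyl1 (-1.38), Mafg (-1.30) and Fli1 (-1.06) were lower too. Runx1, needed for blood cells to leave hemogenic endothelium, did not pass (log2 -0.45, edgeR adjusted p = 0.134), nor did Etv6, Lmo2, Ldb1, Mef2c and Ikzf5.

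All 7 globin genes were lower in Kit+ CD45+ (median -9.28). Hbb-y, the embryonic beta-like globin, stood at 12.9, 56.9, 14.97 and 21.96 CPM in Kit+ CD45+ and at 37371, 63918, 47056 and 66772 CPM in Kit- CD41+ (log2 -10.97, SE 0.72, edgeR adjusted p = 8.44e-11). Hba-x, the embryonic alpha-like globin, stood at 22.4, 13.01, 5.59 and 8.28 CPM in Kit+ CD45+ and at 22149.7, 39204, 28498 and 39814 CPM in Kit- CD41+ (log2 -11.37, SE 0.81, edgeR adjusted p = 2.58e-10). These are the red cell genes with the widest gap, and each Kit- CD41+ library had them far above each Kit+ CD45+ library. Hba-a1 and Hba-a2 (-8.66 and -9.48) and Hbb-bs and Hbb-bt (-5.41 and -5.77) are near-identical copies, between which reads could be split in either way. Free RNA of lysed red cells, red cells in the gate and globin transcription by the sorted cells cannot be told apart here.

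Heme synthesis and red cell membrane genes were lower in 20 of 21 members; Tspo2 did not pass (log2 1.1), and the median was -2.80. Alas2, which starts the making of heme in red cells, stood at 0.745, 0, 0.344 and 0.842 CPM in Kit+ CD45+ and at 375, 799.5, 749 and 754 CPM in Kit- CD41+ (log2 -10.40, SE 0.55, edgeR adjusted p = 9.67e-12); it overlaps Apex2. Epb42, a linker of the red cell skeleton, stood at 0.466, 0.542, 0 and 0 CPM in Kit+ CD45+ and at 24.8, 38.2, 32.5 and 36.5 CPM in Kit- CD41+ (log2 -7.01, SE 0.58, edgeR adjusted p = 1.96e-09). Both genes were at a few CPM or less in every Kit+ CD45+ library. Trim10, an erythroid ubiquitin ligase, stood at 0, 0, 0 and 0 CPM in Kit+ CD45+ and at 15.8, 29.1, 29.7 and 30.8 CPM in Kit- CD41+; with no count in Kit+ CD45+ it was at least 108-fold lower there, against a floor of 3 counts per library. The anion exchanger Slc4a1 was at least 82.8-fold lower by the same floor. The enzymes that every cell uses for heme differed less, by -2.32 for Urod and -1.54 for Ppox, and the receptors Epor and Tfrc by -3.45 and -1.83.

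**Figure D2:**
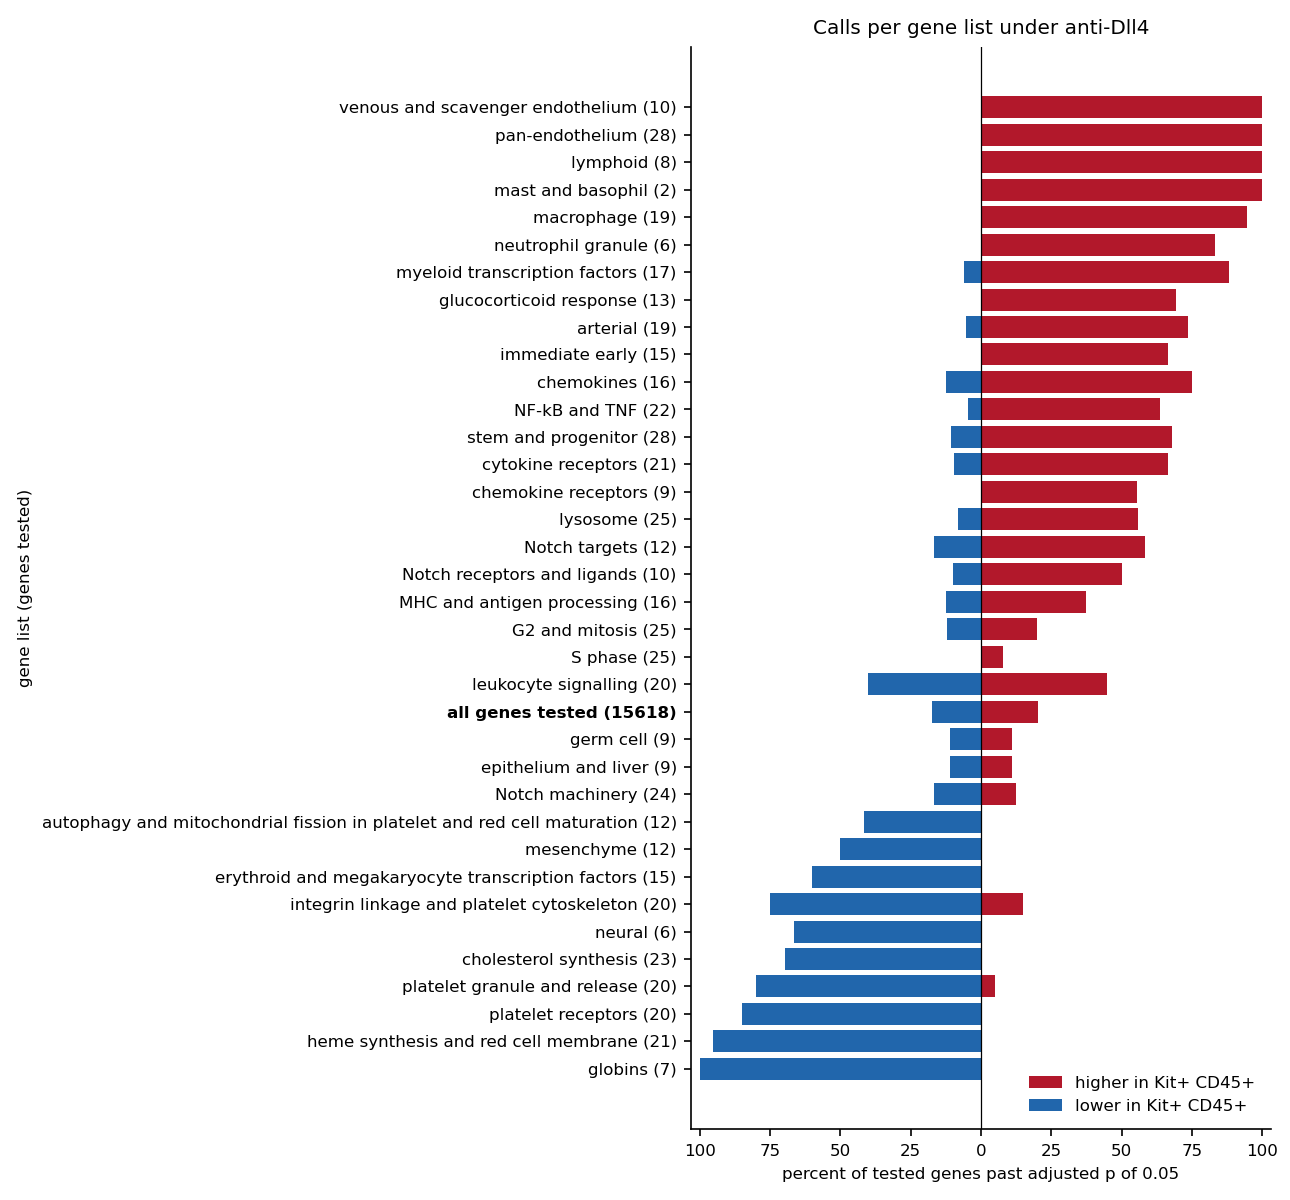
Percent of tested members that passed an adjusted p of 0.05 in 35 gene lists, lower in Kit+ CD45+ to the left (blue) and higher to the right (red), with the number of genes tested in brackets and all 15618 tested genes in bold as background. Globins (7 of 7 lower) stand at one end. At the other are venous (10 of 10 higher), pan-endothelium (28 of 28), lymphoid (8 of 8) and mast and basophil genes (2 of 2). A gene near 0 in Kit- CD41+ passes the filter on low counts through the groups where it is high. With no filter, 6 of 16 lymphoid genes and 2 of 6 mast and basophil genes passed the test.

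Genes of leukocyte signalling split into 9 higher, 8 lower and 3 not passing of 20 (median 0.47). Tyrobp, the adaptor DAP12 of myeloid receptors, stood at 210.4, 185, 88 and 106 CPM in Kit+ CD45+ and at 1.41, 1.11, 2.51 and 3.78 CPM in Kit- CD41+ (log2 6.07, SE 0.58, edgeR adjusted p = 1.93e-08). Cd53, a tetraspanin of white cells, stood at 203, 215, 91.5 and 112 CPM in Kit+ CD45+ and at 0.402, 0.302, 0 and 0.445 CPM in Kit- CD41+ (log2 9.02, SE 0.88, edgeR adjusted p = 2.49e-08). Both were near 0 in Kit- CD41+ and present in each Kit+ CD45+ library. Lcp2, the adaptor SLP-76, went the other way, at 50.8, 72.5, 75.5 and 47.6 CPM in Kit+ CD45+ and at 387, 451, 379.9 and 292 CPM in Kit- CD41+ (log2 -2.61, SE 0.25, edgeR adjusted p = 2.05e-08). The members lower in Kit+ CD45+ also included Plek (-3.01), Was (-1.62), Cd37 (-1.51), Syk (-1.39) and Vav1 (-1.30); Plek, Syk, Vav1 and Lcp2 act in platelets as well as in white cells. Higher members included Cd52 (6.30), Spn (3.05), Dock2 (3.37), Cd44 (2.05) and Rac2 (1.19).

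Myeloid transcription factors were higher in Kit+ CD45+ in 15 of 17 tested members, with 1 lower and 1 not passing (median 2.02). Cebpb, an activator of macrophage genes, stood at 174, 377, 264 and 262 CPM in Kit+ CD45+ and at 25.8, 38.9, 33.1 and 45.3 CPM in Kit- CD41+ (log2 2.91, SE 0.28, edgeR adjusted p = 1.75e-08). Spi1, which encodes PU.1, the master factor of the myeloid line, stood at 305, 289.8, 300.3 and 310.2 CPM in Kit+ CD45+ and at 50.5, 31.6, 29.3 and 84.8 CPM in Kit- CD41+ (log2 2.62, SE 0.26, edgeR adjusted p = 3.08e-08). Spi1 was thus not restricted to Kit+ CD45+, since every Kit- CD41+ library held 29.3 CPM or more. Irf8, a factor of monocytes and dendritic cells, stood at 32.2, 72.8, 26.6 and 41.1 CPM in Kit+ CD45+ and at 0, 0.202, 0 and 0.334 CPM in Kit- CD41+ (log2 8.24, SE 0.99, edgeR adjusted p = 5.43e-07). Irf5, a factor of macrophage activation, stood at 22.3, 53.4, 34.1 and 38.7 CPM in Kit+ CD45+ and at 8.34, 6.85, 9.19 and 7.23 CPM in Kit- CD41+ (log2 2.23, SE 0.22, edgeR adjusted p = 4.04e-08); its end overlaps that of Tnpo3. None of the 4 had overlapping ranges, and Irf8 was the nearest to 0 in Kit- CD41+. Gfi1, the repressor of granulocyte progenitors, had 1 count in Kit- CD41+ against 679, a ratio of 527 (counting interval 94.3 to 20853). Maf (4.76), Klf4 (2.61) and Batf3 (2.02) were higher, and Zeb2 was lower (-1.20).

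Macrophage genes showed one of the widest gaps, with 18 of 19 tested members higher, none lower and Mertk not passing (log2 2.21, edgeR adjusted p = 0.058). Their median log2 fold change was 6.77, and 6.29 with the 4 members that had no count in Kit- CD41+ set at their lower bound. Cd68, a lysosomal membrane protein, stood at 127, 157, 70.9 and 88.1 CPM in Kit+ CD45+ and at 2.41, 1.11, 0.418 and 1.67 CPM in Kit- CD41+ (log2 6.29, SE 0.47, edgeR adjusted p = 5.79e-10). Fcgr3, an Fc receptor, stood at 403, 361, 160.3 and 174 CPM in Kit+ CD45+ and at 1.105, 0, 1.36 and 0.667 CPM in Kit- CD41+ (log2 8.44, SE 0.66, edgeR adjusted p = 1.03e-09). Complement C1qc stood at 262, 338, 175 and 152 CPM in Kit+ CD45+ and at 0, 0, 0 and 0.667 CPM in Kit- CD41+ (log2 10.42, SE 0.93, edgeR adjusted p = 2.43e-08). The 3 genes were at or near 0 in all Kit- CD41+ libraries. C1qb had 1 count there against 20059, a ratio of 15574 (counting interval 2795 to 615184), while C1qa was at least 286-fold higher, Ctss, the protease cathepsin S, at least 291-fold higher, and Adgre1, which encodes F4/80, at least 88.9-fold higher. Csf1r, the receptor for the macrophage growth factor, was higher by 3.93 and the mannose receptor Mrc1 by 5.52. Lyz2, the lysozyme used as a myeloid marker, differed least of the members that passed (log2 0.99, edgeR adjusted p = 0.0413). The summed level of the list was 1436 to 3247 CPM in Kit+ CD45+ and 112 to 129 CPM in Kit- CD41+; what part macrophages in the Kit+ CD45+ gate have in the differences of other lists was not tested.

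Granule genes of neutrophils and their precursors were higher in 5 of 6 tested members, and 10 of the 16 listed genes did not pass the filter on low counts or were not in the table, among them S100a8, S100a9 and Ltf; with no filter 4 of 12 passed the test. Mpo, the peroxidase of early granules, stood at 262, 339, 208 and 129 CPM in Kit+ CD45+ and at 0, 0.907, 0.522 and 1.22 CPM in Kit- CD41+ (log2 8.46, SE 0.95, edgeR adjusted p = 1.92e-07). Prtn3, proteinase 3, stood at 97.05, 53.7, 46.8 and 39.6 CPM in Kit+ CD45+ and at 6.53, 9.37, 8.88 and 8.67 CPM in Kit- CD41+ (log2 2.82, SE 0.36, edgeR adjusted p = 1.3e-06). Mmp9, a gelatinase, stood at 1.86, 2.01, 8.95 and 2.88 CPM in Kit+ CD45+ and at 0.1004, 0.403, 0 and 0 CPM in Kit- CD41+ (log2 4.80, SE 1.27, edgeR adjusted p = 0.00449). Ms4a3, a marker of granulocyte and monocyte progenitors, stood at 28.1, 3.56, 1.46 and 0.912 CPM in Kit+ CD45+ and at 1.105, 0.605, 1.25 and 0.445 CPM in Kit- CD41+ (log2 3.30, SE 1.02, edgeR adjusted p = 0.0136). Mpo and Prtn3 had ranges apart; Ms4a3 rested on Kit+ CD45+ replicate 1, without which its log2 difference was 1.20 and 3 members of the list passed. Of the mast cell and basophil genes, 2 of 9 passed the filter and both were higher, and with no filter 2 of 6 passed the test. Hdc, which makes histamine, stood at 21.9, 22.5, 2.495 and 1.96 CPM in Kit+ CD45+ and at 0.402, 0.101, 0.313 and 1.001 CPM in Kit- CD41+ (log2 4.73, SE 0.90, edgeR adjusted p = 0.000205), and Cpa3, the mast cell carboxypeptidase, at 28.6, 15.4, 9.55 and 4.07 CPM in Kit+ CD45+ and at 0.301, 0.806, 0 and 0 CPM in Kit- CD41+ (log2 5.61, SE 1.39, edgeR adjusted p = 0.00262). The other mast and basophil genes, such as Ms4a2 and Fcer1a, did not pass the filter.

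Of 18 lymphoid genes listed, 8 passed the filter on low counts and these 8 were higher; a gene near 0 in Kit- CD41+ passes that filter through the groups where it is high, so the count describes these 8 alone, and with no filter 6 of 16 passed the test. Ighm, the heavy chain locus of IgM, stood at 35.6, 69.95, 31.6 and 48.2 CPM in Kit+ CD45+ and at 0, 0, 0 and 0 CPM in Kit- CD41+, at least 148-fold higher. Lck, a kinase of T cell signalling, stood at 24.9, 37.5, 41.9 and 41.7 CPM in Kit+ CD45+ and at 2.31, 2.12, 1.04 and 0.556 CPM in Kit- CD41+ (log2 4.58, SE 0.47, edgeR adjusted p = 4.92e-08). Bcl11a, a factor of lymphoid and fetal red cell development, stood at 49.8, 38.4, 58.5 and 51.6 CPM in Kit+ CD45+ and at 4.82, 3.43, 11.1 and 7.45 CPM in Kit- CD41+ (log2 2.89, SE 0.39, edgeR adjusted p = 2.45e-06). Ebf1, known from B cells and from some non-blood tissues, stood at 10.2, 10.9, 7.48 and 12.4 CPM in Kit+ CD45+ and at 1.31, 3.02, 1.88 and 1.56 CPM in Kit- CD41+ (log2 2.39, SE 0.40, edgeR adjusted p = 4.2e-05). Lymphocyte receptor and recombination genes (Rag1, Rag2, Cd79a, Cd3g) did not pass the filter, and 5 of the 8 passed without Kit+ CD45+ replicate 2 or without Kit- CD41+ replicate 1. The heavy chain locus can be transcribed without rearrangement.

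Cytokine receptors were higher in 14 of 21 members, lower in 2 and not passing in 5 (median 1.85). Ifngr1, the ligand-binding chain of the interferon gamma receptor, stood at 123, 160.5, 118 and 176 CPM in Kit+ CD45+ and at 14.7, 21.6, 9.19 and 24.2 CPM in Kit- CD41+ (log2 3.05, SE 0.27, edgeR adjusted p = 4.47e-09). Tnfrsf1a, the main TNF receptor, stood at 45.1, 87.8, 84.7 and 88.05 CPM in Kit+ CD45+ and at 1.51, 6.25, 4.28 and 3.45 CPM in Kit- CD41+ (log2 4.30, SE 0.41, edgeR adjusted p = 1.99e-08). Both receptors were higher in every Kit+ CD45+ library, with no overlap. Flt3, the receptor of early lymphoid and myeloid progenitors, was at least 35.4-fold higher and Il7r at least 6.25-fold higher; Csf3r, the G-CSF receptor, was higher by 6.15. The receptor chains for IL-3, a cytokine that the medium of all groups contained, did not pass: Il3ra had a log2 value of 1.17, Csf2rb of 0.62 and Csf2rb2 of -0.03.

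Chemokines fell into opposite sets, with 12 of 16 tested members higher, 2 lower and 2 not passing. With no filter on low counts, 11 of 19 were higher and 2 lower. Ccl3 (chr11:83647844-83649355), a chemokine that draws myeloid cells through receptors such as Ccr1, stood at 460, 394, 278 and 224 CPM in Kit+ CD45+ and at 0, 0.705, 0 and 0 CPM in Kit- CD41+ (log2 10.77, SE 0.72, edgeR adjusted p = 1.08e-10). Ccl4, its neighbour in the same gene cluster, stood at 445, 297, 142 and 218 CPM in Kit+ CD45+ and at 0.301, 0.302, 0 and 0 CPM in Kit- CD41+ (log2 10.68, SE 0.76, edgeR adjusted p = 2.58e-10). Ccl6 stood at 179, 195, 82.2 and 34.5 CPM in Kit+ CD45+ and at 0.1004, 0, 0 and 0.445 CPM in Kit- CD41+ (log2 9.75, SE 1.1, edgeR adjusted p = 1.93e-07). All 3 were at or near 0 in Kit- CD41+ libraries. Ccl9 had no count there and was at least 569.9-fold higher, Ccl12 at least 201-fold higher and Ccl24 at least 44.8-fold higher. The 2 lower members were the platelet chemokines Pf4 and Ppbp named above, which made the summed level of the whole list higher in Kit- CD41+ (14126 to 19587 CPM) than in Kit+ CD45+ (909 to 2181 CPM). The median log2 fold change was 7.16, and 5.59 with 3 members at their lower bound. Chemokine receptors were higher in 5 of 9 tested members and lower in none. A gene near 0 in Kit- CD41+ passes the filter on low counts through the groups where it is high. With no filter 4 of 13 receptors passed the test. Ccr1 had 1 count in Kit- CD41+ against 1364, a ratio of 1059 (counting interval 189.8 to 41860.4). Cx3cr1, the fractalkine receptor of microglia and macrophages, stood at 22.2, 55, 29.6 and 18.9 CPM in Kit+ CD45+ and at 2.31, 0, 0.418 and 1.11 CPM in Kit- CD41+ (log2 5.01, SE 0.84, edgeR adjusted p = 4.96e-05); other genes overlap its locus. Cxcr4, the receptor for Cxcl12, did not pass (log2 0.77, edgeR adjusted p = 0.131). Without either replicate 4 library, 3 of the 9 receptors passed.

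NF-kB and TNF response genes were higher in 14 of 22 members and lower in 1 (median 1.68). Icam1, an adhesion molecule for leukocytes, stood at 38.5, 78.2, 90.4 and 76.8 CPM in Kit+ CD45+ and at 0.803, 1.31, 0 and 0.8896 CPM in Kit- CD41+ (log2 6.54, SE 0.56, edgeR adjusted p = 3.7e-09). Nfkbia, the inhibitor that NF-kB itself induces, stood at 104, 119.9, 102 and 133 CPM in Kit+ CD45+ and at 28.9, 32.9, 25.9 and 25.6 CPM in Kit- CD41+ (log2 2.02, SE 0.24, edgeR adjusted p = 4.66e-07). Rel, a subunit of blood cells, stood at 13.5, 8.21, 10.1 and 8.98 CPM in Kit+ CD45+ and at 0.904, 0.403, 1.25 and 1.45 CPM in Kit- CD41+ (log2 3.34, SE 0.45, edgeR adjusted p = 2.68e-06), and Tnfaip2 at 10.2, 13.01, 11.1 and 12 CPM in Kit+ CD45+ and at 1.004, 0.605, 1.25 and 1.78 CPM in Kit- CD41+ (log2 3.31, SE 0.35, edgeR adjusted p = 6.7e-08). None of these ranges overlapped, as was so for 15 of the 22 members, against 37.1% of all tested genes. The subunit Rela (log2 -0.14), Tnf itself (0.86) and Birc3 (0.27) did not pass.

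Genes of antigen presentation were higher in 6 of 16 tested members and lower in 2 (median 0.48). Psmb8, a subunit of the immunoproteasome, stood at 26.4, 35.4, 16.7 and 16 CPM in Kit+ CD45+ and at 0.301, 0.101, 0.731 and 0.778 CPM in Kit- CD41+ (log2 5.61, SE 0.70, edgeR adjusted p = 8.13e-07). Cd74, the invariant chain, had 1 count in Kit- CD41+ against 521, a ratio of 404 (counting interval 72.3 to 16008). The class I gene H2-K1 stood at 30.7, 39.9, 40.5 and 32.8 CPM in Kit+ CD45+ and at 14.5, 19.8, 13.99 and 15.2 CPM in Kit- CD41+ (log2 1.18, SE 0.20, edgeR adjusted p = 6.49e-05). The class II chains H2-Ab1 and H2-Eb1 did not pass (log2 -0.25 and -0.24). Psmb9 (5.17) overlaps Tap1, and H2 genes share reads with near copies.

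Lysosomal genes were higher in 14 of 25 members and lower in 2 (median 0.76). Ctsh, a cathepsin, stood at 34.4, 48.8, 29.7 and 50.2 CPM in Kit+ CD45+ and at 0.402, 1.01, 0.313 and 0.556 CPM in Kit- CD41+ (log2 6.13, SE 0.49, edgeR adjusted p = 1.44e-09), Ctsl at 636, 686, 409 and 679.5 CPM in Kit+ CD45+ and at 79.2, 102, 78.8 and 86.6 CPM in Kit- CD41+ (log2 2.80, SE 0.25, edgeR adjusted p = 7.04e-09), and Ctsc, which activates granule proteases, at 639.9, 623, 495 and 515 CPM in Kit+ CD45+ and at 83.05, 78.9, 65.6 and 88.6 CPM in Kit- CD41+ (log2 2.85, SE 0.29, edgeR adjusted p = 5.6e-08). Lipa, the acid lipase that frees cholesterol from its esters, stood at 55.6, 84.7, 94.7 and 87.1 CPM in Kit+ CD45+ and at 21.3, 17.2, 15.04 and 16.8 CPM in Kit- CD41+ (log2 2.19, SE 0.22, edgeR adjusted p = 4.21e-08). All 4 were higher in every Kit+ CD45+ library. Ctsd (0.22), Lamp1 (-0.27) and Lamp2 (0.28) did not pass, and Hexa was lower (-1.06). Cholesterol synthesis genes went the other way, with 16 of 23 tested members lower, none higher and 7 not passing (median -0.75). Stard4, a sterol carrier, stood at 61.2, 40.8, 47.9 and 50.2 CPM in Kit+ CD45+ and at 174, 179, 133 and 160.5 CPM in Kit- CD41+ (log2 -1.69, SE 0.17, edgeR adjusted p = 4.87e-08). Mvk, mevalonate kinase, stood at 14.5, 19.5, 18.9 and 14.6 CPM in Kit+ CD45+ and at 34.5, 50.5, 45.7 and 48.1 CPM in Kit- CD41+ (log2 -1.40, SE 0.17, edgeR adjusted p = 6.02e-07). Fdps, which makes farnesyl diphosphate, stood at 11.9, 10.8, 10.49 and 10.7 CPM in Kit+ CD45+ and at 30.7, 29.3, 30.8 and 40.6 CPM in Kit- CD41+ (log2 -1.58, SE 0.20, edgeR adjusted p = 9.74e-07). The 3 genes had no overlap, at folds of 3.23, 2.65 and 2.99. The early enzyme Hmgcs1 (-0.05) and the regulator Srebf2 (-0.16) did not pass; against a fold of 1.5, 10 members passed.

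Stem and progenitor genes were higher in 19 of 28 members, lower in 3 and not passing in 6 (median 2.18, and 2.06 with 2 members at their lower bound). Cd93, a surface protein of progenitors and endothelium, stood at 124, 113, 119.5 and 145 CPM in Kit+ CD45+ and at 1.71, 1.91, 1.67 and 2.11 CPM in Kit- CD41+ (log2 6.07, SE 0.39, edgeR adjusted p = 6.8e-11). Cd34, the sialomucin of both those cell types, stood at 619, 681, 854 and 723 CPM in Kit+ CD45+ and at 16.8, 15.8, 14.6 and 23.6 CPM in Kit- CD41+ (log2 5.35, SE 0.41, edgeR adjusted p = 8.02e-10). Erg, an ETS factor of stem cells and endothelium, stood at 17.98, 16.8, 10.8 and 17.8 CPM in Kit+ CD45+ and at 0.301, 0.403, 0 and 0 CPM in Kit- CD41+ (log2 6.36, SE 0.61, edgeR adjusted p = 1.99e-08). All 3 are shared with endothelium and were low in each Kit- CD41+ library. Among members less tied to endothelium, Myb was higher by 3.26, Hoxa9 by 3.15, Ikzf1 by 2.45 and Cd27 by 2.95, and Cd48 was at least 30.1-fold higher. Hlf, a factor of definitive stem cells, had 2 counts in Kit- CD41+ against 750, a ratio of 291 (counting interval 80.3 to 2409). The lower members included Meis1, a homeodomain factor (-1.72), and Slamf1, the SLAM receptor that stem cells share with megakaryocytes (-5.50). Gata2 (0.07, edgeR adjusted p = 0.879) and Bmi1 (-0.03) did not pass.

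Every one of the 28 pan-endothelial genes was higher in Kit+ CD45+ (median 4.37). Ramp2 (chr11:101246028-101259546), which with Calcrl forms the adrenomedullin receptor, stood at 405, 309, 292 and 369.9 CPM in Kit+ CD45+ and at 4.62, 3.53, 5.33 and 4.12 CPM in Kit- CD41+ (log2 6.29, SE 0.40, edgeR adjusted p = 6.8e-11); it overlaps Vps25. Calcrl stood at 141, 93.03, 114 and 119 CPM in Kit+ CD45+ and at 10.9, 3.73, 8.25 and 12.3 CPM in Kit- CD41+ (log2 3.73, SE 0.29, edgeR adjusted p = 7.77e-10). Icam2, an adhesion molecule that platelets and leukocytes also carry, stood at 164, 158, 175 and 178 CPM in Kit+ CD45+ and at 7.23, 10.1, 5.95 and 12.9 CPM in Kit- CD41+ (log2 4.22, SE 0.34, edgeR adjusted p = 1.19e-09). Sox18, an endothelial SOX factor, stood at 69.4, 109.8, 140 and 149.9 CPM in Kit+ CD45+ and at 0.1004, 0.806, 0 and 1.45 CPM in Kit- CD41+ (log2 7.64, SE 0.61, edgeR adjusted p = 1.37e-09). Their ranges did not overlap, and Sox18 was near 0 in Kit- CD41+. Cdh5, the cadherin of endothelial junctions, was higher by 6.69, Cldn5 by 7.33, Clec14a by 7.80 and Emcn by 7.20, and Robo4 was at least 26.04-fold higher. Kdr, the VEGF receptor that hemogenic cells also carry, differed less (log2 1.56), as did Tie1 (0.86) and Egfl7 (0.85). The list summed to 3527 to 4958 CPM in Kit+ CD45+ libraries and 611 to 694 CPM in Kit- CD41+ libraries. Endothelial cells in the gate and endothelial transcripts kept by Kit+ CD45+ cells cannot be told apart.

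Arterial genes were higher in 14 of 19 members, lower in 1 and not passing in 4 (median 2.34). Sox17, the SOX factor of arterial and hemogenic endothelium, stood at 39.7, 72.97, 124 and 94.6 CPM in Kit+ CD45+ and at 0.301, 0.101, 0 and 0.556 CPM in Kit- CD41+ (log2 8.39, SE 0.95, edgeR adjusted p = 2.2e-07). Nrp1, a VEGF and semaphorin co-receptor, stood at 25.7, 42.8, 42.5 and 43.6 CPM in Kit+ CD45+ and at 1.21, 0.605, 3.34 and 2.78 CPM in Kit- CD41+ (log2 4.29, SE 0.39, edgeR adjusted p = 1.03e-08). Acvrl1, the endothelial BMP receptor ALK1, stood at 18.6, 67.5, 44.04 and 57.5 CPM in Kit+ CD45+ and at 1.31, 0.202, 0.209 and 0.111 CPM in Kit- CD41+ (log2 6.62, SE 0.79, edgeR adjusted p = 4.51e-07). The 3 genes had ranges apart. Bmx was at least 9.87-fold higher, and the connexins split, with Gja4 lower (-1.20) and Gja5 not passing (0.21). No arterial member was lower under IgG, against a fold of 1.5, or without replicate 3 or replicate 4 of all groups. All 10 venous and scavenger genes were higher (median 4.20). Flt4, the receptor for Vegfc, stood at 9.69, 19.8, 18.2 and 19.5 CPM in Kit+ CD45+ and at 0.904, 0.705, 0.209 and 1.11 CPM in Kit- CD41+ (log2 4.50, SE 0.41, edgeR adjusted p = 1.06e-08). Aplnr, the apelin receptor, stood at 42.9, 46.1, 47.3 and 60.9 CPM in Kit+ CD45+ and at 0.201, 0.705, 0 and 2.56 CPM in Kit- CD41+ (log2 5.85, SE 0.70, edgeR adjusted p = 4.72e-07). Ephb4, the receptor for the arterial ligand Efnb2, stood at 11.46, 10.46, 16.7 and 23.4 CPM in Kit+ CD45+ and at 0.904, 2.22, 0.731 and 0.556 CPM in Kit- CD41+ (log2 3.79, SE 0.48, edgeR adjusted p = 1.13e-06), and Nrp2 at 30.6, 28.04, 19.01 and 38.1 CPM in Kit+ CD45+ and at 1.71, 3.33, 5.33 and 0.667 CPM in Kit- CD41+ (log2 3.38, SE 0.43, edgeR adjusted p = 1.3e-06). Arterial and venous genes were thus both higher in the same libraries. The scavenger receptors Stab2 (7.13) and Lyve1 (3.89), which embryonic macrophages can also carry, were among them.

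**Figure D3:**
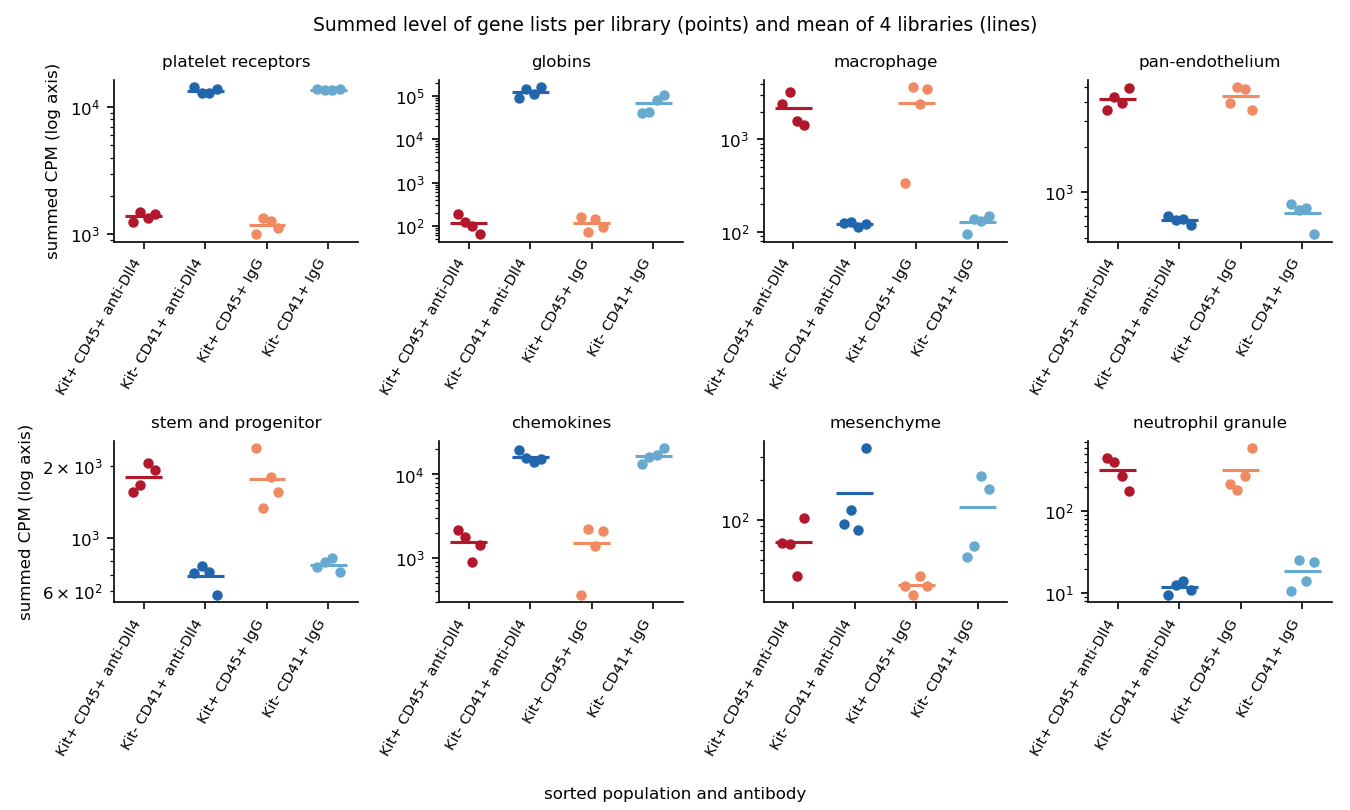
Summed CPM (log axis) of 8 gene lists in each of 16 libraries (points) with the mean of 4 libraries (lines), by population and antibody. Platelet receptor and globin sums are higher in Kit- CD41+, macrophage and pan-endothelium sums in Kit+ CD45+, and the chemokine sum is led by the platelet chemokines in Kit- CD41+; 1 Kit+ CD45+ library under IgG is low for macrophage genes and chemokines.

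Notch receptors and ligands were higher in 5 of 10 tested members, lower in 1 and not passing in 4. Dll4 (chr2:119325784-119335962), the ligand that the antibody blocked, stood at 4.38, 12.1, 14.7 and 11.3 CPM in Kit+ CD45+ and at 0, 0, 0.209 and 0.111 CPM in Kit- CD41+; it had 3 counts in Kit- CD41+ against 535, a ratio of 138 (counting interval 47.1 to 674). Notch1 stood at 12.4, 13.8, 14.4 and 16.9 CPM in Kit+ CD45+ and at 2.11, 2.02, 2.61 and 1.33 CPM in Kit- CD41+ (log2 2.82, SE 0.36, edgeR adjusted p = 1.16e-06). Notch4, the endothelial receptor, stood at 4.098, 5.58, 3.79 and 6.104 CPM in Kit+ CD45+ and at 1.004, 0.806, 1.04 and 1.22 CPM in Kit- CD41+ (log2 2.25, SE 0.39, edgeR adjusted p = 6.78e-05). These 3 genes were higher in every Kit+ CD45+ library, so both a receptor and the blocked ligand were transcribed in that population. Jag1 stood at 4.56, 4.803, 1.46 and 5.12 CPM in Kit+ CD45+ and at 1.31, 1.11, 0.9399 and 0.667 CPM in Kit- CD41+ (log2 1.97, SE 0.42, edgeR adjusted p = 0.000698), with Jag2 higher by 1.41 and Dll3 lower (-4.31). The ranges of Dll3 overlapped, at 0 to 0.258 CPM in Kit+ CD45+ and 0 to 7.52 CPM in Kit- CD41+, and no member was lower with a replicate block, with the 8 libraries alone or without Kit- CD41+ replicate 3. Of 24 genes of the Notch machinery 3 were higher, 4 lower and 17 did not pass, a share below the background of all genes. Mfng, the fringe that modifies Notch in blood cells, stood at 56.3, 92.1, 78.1 and 94.8 CPM in Kit+ CD45+ and at 11.8, 11.8, 14.9 and 15.5 CPM in Kit- CD41+ (log2 2.57, SE 0.31, edgeR adjusted p = 4.75e-07). Psen2, a catalytic subunit of gamma-secretase, was lower by 1.01 on the log2 scale, while the nuclear partner Rbpj (0.30) and the sheddases Adam10 (-0.29) and Adam17 (0.25) did not pass. Dtx1, a target and regulator of Notch, had 1 count in Kit- CD41+ against 117, a ratio of 90.8 (counting interval 15.99 to 3618). The count of this list was between 2 and 8 with single libraries or replicate numbers left out.

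Target genes of Notch were higher in 7 of 12 tested members and lower in 2. Hes1, the repressor that Notch induces in most tissues, stood at 43.8, 51.4, 46.02 and 55.1 CPM in Kit+ CD45+ and at 6.73, 6.85, 9.399 and 5.89 CPM in Kit- CD41+ (log2 2.76, SE 0.32, edgeR adjusted p = 3.18e-07). Hes7, the oscillating repressor of somite formation, stood at 1.12, 1.24, 2.32 and 1.96 CPM in Kit+ CD45+ and at 26.6, 24.4, 33.5 and 28.9 CPM in Kit- CD41+ (log2 -4.08, SE 0.43, edgeR adjusted p = 8.01e-08). Efnb2, the arterial ephrin, stood at 12.2, 10.8, 12.4 and 8.14 CPM in Kit+ CD45+ and at 1.004, 2.92, 2.402 and 2.002 CPM in Kit- CD41+ (log2 2.38, SE 0.37, edgeR adjusted p = 1.57e-05), and Myc at 171, 208, 549 and 424 CPM in Kit+ CD45+ and at 57.2, 65.3, 58.9 and 97.8 CPM in Kit- CD41+ (log2 2.28, SE 0.28, edgeR adjusted p = 5.79e-07). Hes1 and Hes7 thus lay on opposite sides with ranges apart. Hey1, an arterial target, was higher by 2.83 and the feedback inhibitor Nrarp by 1.87, and Heyl had 2 counts in Kit+ CD45+ against 59, a ratio of 37.99 (counting interval 10.1 to 321). The differences in Hes1, Hey1, Nrarp and Efnb2 were present with Dll4 blocked for 5 h; the level of each in the IgG libraries is given with the antibody comparison.

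Few replication genes differed, with 2 of 25 S phase members higher and none lower, below the background share. Mcm3, a subunit of the replicative helicase, stood at 193, 243, 345 and 302 CPM in Kit+ CD45+ and at 134, 148, 170.2 and 126 CPM in Kit- CD41+ (log2 0.91, SE 0.22, edgeR adjusted p = 0.00201), and Cdt1, which loads it, at 42.8, 51.8, 79.6 and 61.2 CPM in Kit+ CD45+ and at 21.5, 38.8, 43.02 and 31.8 CPM in Kit- CD41+ (log2 0.80, SE 0.24, edgeR adjusted p = 0.0123). Pcna (-0.10) and Rrm2 (0.13) did not pass; without Kit+ CD45+ replicate 1, 5 members passed. Of 25 genes of G2 and mitosis, 5 were higher and 3 lower (a share below the background of 37.6%). The cytokinesis genes Anln and Kif23 were higher by 0.85 and 0.79. Ccna2, a cyclin of S phase and G2, was lower by 0.39 and the proliferation marker Mki67 by 0.49 on the log2 scale, and no member passed against a fold of 1.5. Single left-out libraries gave 4 to 8 calls in this list.

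Hydrocortisone was in the medium of all groups, and genes known to respond to glucocorticoids were higher in 9 of 13 members and lower in none (median 1.63). Sgk1, a kinase of salt and stress responses, stood at 98.7, 73.5, 149 and 129.5 CPM in Kit+ CD45+ and at 10.2, 7.76, 6.997 and 7.67 CPM in Kit- CD41+ (log2 3.78, SE 0.34, edgeR adjusted p = 8.11e-09). Dusp1, a phosphatase that ends MAP kinase signals, stood at 160, 408, 238 and 351 CPM in Kit+ CD45+ and at 41.2, 63.98, 51.8 and 48.1 CPM in Kit- CD41+ (log2 2.50, SE 0.30, edgeR adjusted p = 4.7e-07). Tsc22d3 (0.00) and Per1 (0.05), both direct targets in many cells, and the receptor Nr3c1 (0.58) did not pass. Immediate early genes, which tissue digestion can also induce, were higher in 10 of 15 members and lower in none (median 0.87). Atf3, a stress factor, stood at 104, 171, 172 and 126 CPM in Kit+ CD45+ and at 8.13, 17.4, 6.06 and 12.1 CPM in Kit- CD41+ (log2 3.71, SE 0.43, edgeR adjusted p = 2.79e-07), and Fos at 86.4, 363, 191 and 296 CPM in Kit+ CD45+ and at 31.2, 45.7, 50.6 and 19.02 CPM in Kit- CD41+ (log2 2.67, SE 0.42, edgeR adjusted p = 2.12e-05). Egr1 (0.70), Jun (0.98) and Fosb (0.82) did not pass. The count was 4 without replicate 4 of both populations and 5 against a fold of 1.5. Genes of autophagy and mitochondrial fission, which act in the clearance of organelles from red cells and platelets, were lower in 5 of 12 members (41.7%, against 37.6% of all genes called) and higher in none, with a median of -0.10. Bnip3l, the receptor that removes mitochondria from red cells, stood at 86.7, 75.3, 56.3 and 63.8 CPM in Kit+ CD45+ and at 162, 146, 135 and 154 CPM in Kit- CD41+ (log2 -1.08, SE 0.15, edgeR adjusted p = 5.14e-06). Bcl2l1, which encodes BCL-XL and keeps platelets and erythroblasts alive, stood at 9.59, 23.8, 18.5 and 22.1 CPM in Kit+ CD45+ and at 53.4, 55.4, 60.1 and 38.2 CPM in Kit- CD41+ (log2 -1.48, SE 0.27, edgeR adjusted p = 0.000151).

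Markers of cells that neither gate should hold were mostly at low levels and, where they differed, mostly higher in Kit- CD41+. Mesenchyme genes were lower in Kit+ CD45+ in 6 of 12 members and higher in none, at summed levels of 38.2 to 104 CPM in Kit+ CD45+ and 83.9 to 348 CPM in Kit- CD41+. Twist1 stood at 2.33, 2.32, 3.44 and 0.842 CPM in Kit+ CD45+ and at 11.9, 18.4, 13.99 and 10.6 CPM in Kit- CD41+ (log2 -2.62, SE 0.54, edgeR adjusted p = 0.000456), and Pdgfra at 0.373, 1.63, 0.08602 and 0 CPM in Kit+ CD45+ and at 3.21, 6.85, 7.21 and 5.45 CPM in Kit- CD41+ (log2 -3.41, SE 0.91, edgeR adjusted p = 0.00487). Of 6 tested neural genes 4 were lower, at sums of 25.5 to 39.7 and 26.01 to 86.4 CPM, and Tubb3 differed by -4.13. Of 9 epithelium and liver genes 1 was higher and 1 lower, at sums of 40.1 to 72.9 and 43.8 to 131 CPM, and Krt8 differed by -2.48. Of 9 germ cell genes 1 was higher and 1 lower, at sums of 8.29 to 13.8 and 3.67 to 8.04 CPM; the higher one was Prdm1 (3.15), a factor that blood and other cells also use. The part of these cells in the results above was not tested.

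The same contrast under IgG, in 8 other libraries, shows which of these differences also occur without the block. Under IgG 5815 genes (37.2%) passed, 3082 higher (19.7%) and 2733 lower (17.5%) in Kit+ CD45+. Both antibodies shared 4767 calls, all in the same direction (2539 higher and 2228 lower), which is 81.1% of the calls under anti-Dll4 and 82.0% of those under IgG. No gene was called in opposite directions. Of the 3915 genes that differed by more than 2-fold under anti-Dll4, 3353 (85.6%) were also called under IgG. A further 1108 genes were called under anti-Dll4 only, of which 1056 had the same sign under IgG and 120 had an unadjusted p under 0.05 for the difference between antibodies; 1048 were called under IgG only. Across the tested genes the 2 sets of fold changes had a Pearson r of 0.891 and a Spearman rho of 0.86, given as a description, since genes are not replicates.

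The difference of the population contrast between antibodies was then tested directly, as the contrast under anti-Dll4 minus that under IgG. It passed for 1 of 15618 genes (0.0064%) by edgeR's quasi-likelihood test, for 499 (3.2%) at an unadjusted p under 0.05, and for 5 by DESeq2 (3 higher and 2 lower under anti-Dll4). The standard error of the difference was 0.46 (log2) at the median gene. Its 95% interval lay within 2-fold in either direction for 6295 genes, among them 2387 of the 5875 called under anti-Dll4 (40.6%), so for the other calls a change of 2-fold with the antibody was not bounded. No member of any of the 35 lists passed this test.

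**Figure D4:**
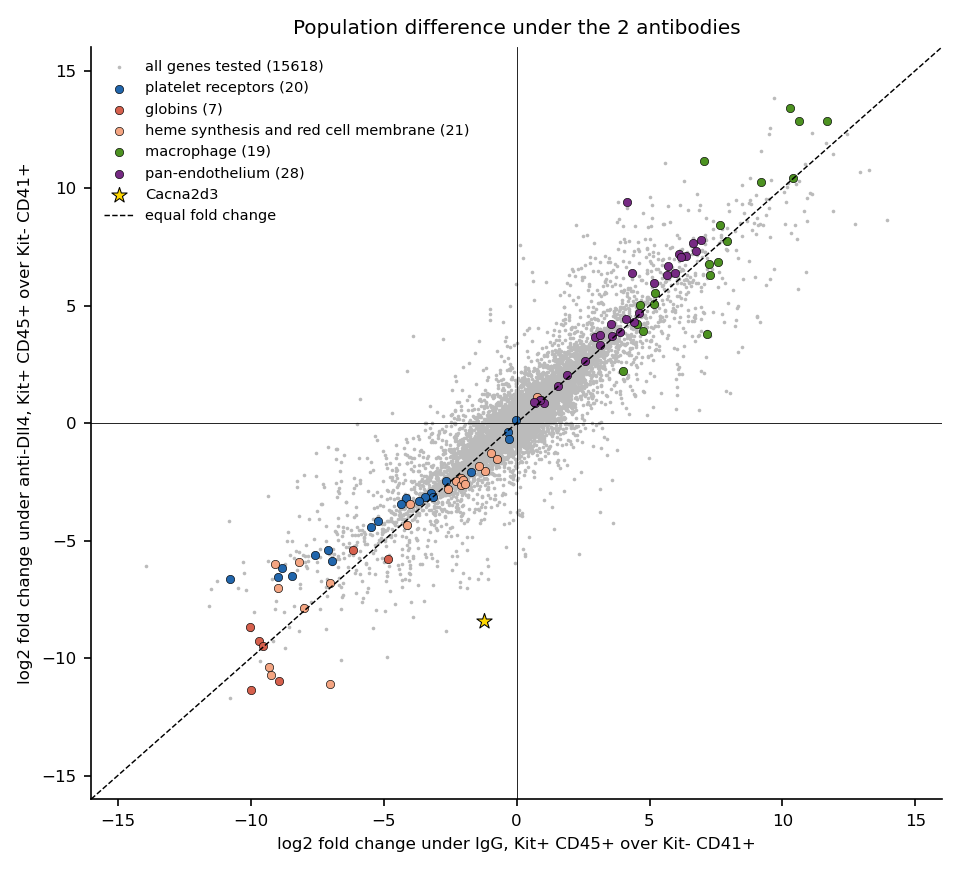
Log2 fold change of Kit+ CD45+ over Kit- CD41+ under IgG (horizontal) and under anti-Dll4 (vertical) for 15618 tested genes (grey), with 5 gene lists coloured, Cacna2d3 as a star and equality as a dashed line; fitted values of genes with no count in a group depend on the prior count. Coloured genes keep to the lower left and upper right along the line, with several platelet receptor points above it.

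The gene that passed was Cacna2d3, a subunit of voltage-gated calcium channels, which was chosen after its values were seen because its level was under the 5 CPM set for named genes. It stood at 0, 0, 0 and 0 CPM in Kit+ CD45+ and at 3.11, 5.14, 3.55 and 4.56 CPM in Kit- CD41+ under anti-Dll4, at least 16.7-fold lower in Kit+ CD45+, and under IgG at 0.931, 0.151, 0.457 and 0.269 CPM in Kit+ CD45+ and 1.71, 0.266, 1.302 and 1.11 CPM in Kit- CD41+ (log2 -1.22, edgeR adjusted p = 0.0697). The fitted difference was -7.18 (edgeR adjusted p = 0.0314). All 4 Kit- CD41+ libraries under anti-Dll4 were above the 4 under IgG, and all 4 Kit+ CD45+ libraries were at 0. No gene passed with a replicate block, with the 16 libraries alone, or when any 1 of 10 libraries was left out: each of the 4 Kit+ CD45+ libraries or Kit- CD41+ replicate 2 or 4 under anti-Dll4, or replicate 1 or 3 of Kit+ CD45+ or replicate 3 or 4 of Kit- CD41+ under IgG.

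Among genes above that floor, the 5 with the smallest p for the difference were Flt4, F2rl2, Adra2b, Pcdh17 and Ly6g6f, none of which passed. Flt4 stood at 17.9, 23.1, 24.5 and 10.04 CPM in Kit+ CD45+ and 0.0855, 0, 0 and 0 CPM in Kit- CD41+ under IgG, from 1 count in Kit- CD41+ and 1008 in Kit+ CD45+, a ratio of 806 (counting interval 144 to 31845). The fitted difference between antibodies was -4.54 (SE 0.86, unadjusted p = 2.41e-05, edgeR adjusted p = 0.188). It was higher in every Kit+ CD45+ library under both antibodies, and under anti-Dll4 it was also read in each Kit- CD41+ library. F2rl2 stood at 1.397, 7.12, 8.22 and 7.35 CPM in Kit+ CD45+ and 3267, 2670.2, 2981 and 3020.5 CPM in Kit- CD41+ under IgG; the difference between antibodies was 2.41 (SE 0.49, unadjusted p = 5.46e-05, edgeR adjusted p = 0.284). Its Kit- CD41+ levels were alike under both antibodies, and each Kit+ CD45+ library under anti-Dll4 was above each one under IgG. Adra2b, an adrenergic receptor, had no count in Kit+ CD45+ under anti-Dll4 and was at least 22.5-fold lower, with 0.399, 0.757, 0 and 0.0896 CPM in Kit+ CD45+ and 2.48, 0.797, 2.104 and 2.996 CPM in Kit- CD41+ under IgG (edgeR adjusted p = 0.719 for the difference). Pcdh17, a protocadherin, stood at 17.9, 13.8, 22.3 and 23.6 CPM in Kit+ CD45+ and at 0.402, 0.101, 0 and 0.111 CPM in Kit- CD41+ under anti-Dll4 and at 14.8, 21.2, 13.9 and 7.26 CPM and 0.257, 2.12, 3.51 and 0.555 CPM under IgG (edgeR adjusted p = 1.0 for the difference). Ly6g6f, a platelet surface protein, stood at 0, 2.63, 1.204 and 1.47 CPM in Kit+ CD45+ and at 208, 184, 199 and 153 CPM in Kit- CD41+ under anti-Dll4 and at 0, 0.151, 0 and 0.0896 CPM and 199, 206, 185 and 212 CPM under IgG (edgeR adjusted p = 1.0 for the difference).

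Platelet receptors kept the direction of their difference under both antibodies, with 17 of 20 lower under each and medians of -3.39 under anti-Dll4 and -4.26 under IgG. The median difference between antibodies over the list was 0.94, against 0.024 over all genes. Of its members 7 had an unadjusted p under 0.05, while none passed. The median was 0.25 for granule and release genes and 0.27 for integrin linkage genes, with 1 of 20 members under 0.05 in each. Heme and membrane genes had a median of -0.22, with 5 of 21 members under 0.05, against 3.2% of all genes. Summed platelet receptor levels in Kit+ CD45+ overlapped, at 1246 to 1494 CPM under anti-Dll4 and 1000.2 to 1348.5 CPM under IgG. Gp1bb and Tubb1 are named here outside the rule for list members, with earlier results of these data known. They do not stand for their lists. Gp1bb stood at 7.26, 19.99, 35.4 and 11.7 CPM in Kit+ CD45+ under anti-Dll4 and 0.0665, 6.58, 1.75 and 4.48 CPM under IgG. Gp6 stood at 0, 0, 0.305 and 0 CPM in Kit+ CD45+ under IgG. Tubb1, which is no receptor and belongs to the integrin linkage and cytoskeleton list, stood at 0.373, 4.11, 7.91 and 1.47 CPM under anti-Dll4. Under IgG it stood at 0, 1.36, 0 and 0 CPM. Itgb3 stood at 10.4, 5.298, 10.51 and 7.89 CPM under IgG, below all 4 libraries under anti-Dll4. The ranges of the antibodies were apart for F2rl2, Gp1bb and Itgb3 in Kit+ CD45+ and overlapped for Gp6 and Tubb1. The 95% interval of the difference was -0.16 to 0.79 for Clec1b and 0.17 to 1.96 for Itgb3.

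**Figure D5:**
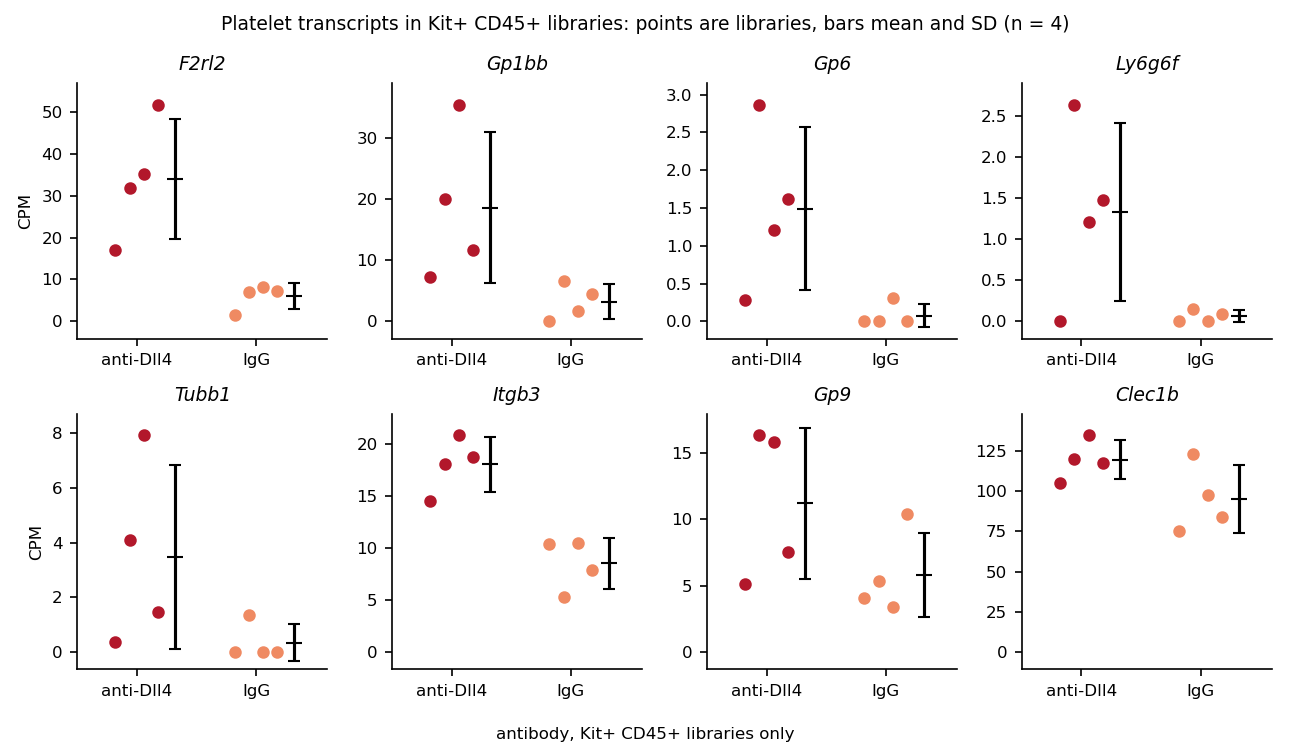
CPM of 8 platelet transcripts in the 4 Kit+ CD45+ libraries under anti-Dll4 and the 4 under IgG (points), with mean and SD (n = 4) as bars. F2rl2, Gp1bb and Itgb3 libraries under anti-Dll4 lie above those under IgG, and the points overlap for Clec1b. The antibody difference within Kit+ CD45+ was not tested. None of the 8 genes passed the test of the population contrast between antibodies. They were picked with earlier results of these data known and do not stand for all platelet transcripts.

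Of the myeloid transcription factors 15 of 17, and of the macrophage genes 18 of 19, were higher under IgG too; Kit+ CD45+ replicate 1 under IgG was low for these genes, with 41.2, 211, 155 and 190.4 CPM of Cd68 over its 4 libraries and a summed macrophage level of 337 CPM against 2440 to 3667 in the other 3. Its lysosome genes summed to 2775 CPM against 6155 to 8007, and its Notch receptors and ligands to 375 CPM against 81.7 to 149. Without it 5183 genes passed under IgG. All 7 globins and 20 of 21 heme and membrane genes were lower under IgG, with medians of -9.55 and -2.59, although the globin share in Kit- CD41+ was 6.63 ± 2.79% under IgG. Pan-endothelial genes were higher in 26 of 28 members; Esam and Tie1, which passed under anti-Dll4, did not pass under IgG (log2 0.65 and 0.70). Venous genes were higher in 10 of 10 and arterial genes in 12 of 19. Genes of G2 and mitosis were higher in 10 and lower in 1 of 25 under IgG, where anti-Dll4 gave 5 and 3. Immediate early genes were higher in 7 of 15 against 10, the Notch machinery was higher in 4 and lower in 1 of 24 against 3 and 4, and mesenchyme genes were lower in 4 of 12 against 6. These differences between list counts were not tested. Among the Notch targets, Hes1 stood at 98.4, 62.7, 90.6 and 74.1 CPM and 6.16, 21.7, 29.6 and 14.2 CPM under IgG (log2 2.19), and the interval of its antibody difference was -0.30 to 1.46. In Kit+ CD45+, Hes1 was below every IgG library (62.7 to 98.4 CPM) in all 4 anti-Dll4 libraries (43.8 to 55.1 CPM). In Kit- CD41+ the antibodies overlapped only through IgG replicate 1 (6.16 CPM), and each other IgG library was above all 4 anti-Dll4 libraries. The antibody effect within a population was not tested. Hey1 differed by 3.01 under IgG (interval of the antibody difference -1.5 to 1.14), Nrarp by 2.06 (-1.21 to 0.82) and Efnb2 by 1.95 (-0.60 to 1.45). These intervals all include 0. Spi1 differed by 2.82 under IgG, with an interval of -0.91 to 0.52, and Ccl3, with 1 count in Kit- CD41+ under IgG, by a ratio of 14433 (counting interval 2590.1 to 570091).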

How the data were processed

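RNA-seq counts per gene were deposited for 24 libraries of sorted mouse cells. Per the submitters' processing notes the reads passed through CASAVA 1.4, FastQC, STAR, HTSeq and DESeq2 with the mm10 build; the strand setting is not given in the sources used here. Raw counts for 29716 genes were deposited by the authors, with a log2 table, which equals log2(count / size factor + 1) for the same libraries with size factors of 0.4544 to 1.56 and served only as a check. In both tables, 1 column of no listed sample was not used.

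Counts were tested with edgeR 4.0.16 (R 4.3.3, limma 3.58.1): TMM scaling, the filterByExpr filter by group, which kept 15618 genes, and robust quasi-likelihood fits with 1 coefficient for each of the 6 groups (18 residual degrees of freedom, biological coefficient of variation 0.343, prior count 2). Pooling all groups gives 1 estimate of the spread. A call is an adjusted p under 0.05. The fitting script was tested on simulated data. Exact permutation tests (two-sided) compared library measures, with p-values adjusted over 5 measures. A fold against 4 libraries at 0 was computed against a floor of 3 counts per library, and groups with 1 to 3 counts got a ratio of counts with a 95% counting interval. Overlapping genes were read from the GENCODE annotation of mm10.

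The members and lists were chosen with earlier results of these data known. Genes were named by rule: the sorting genes, the top 10 by p on either side at 5 CPM or more in the higher group, and list members, with values per library for at most 4 of a list. For the population difference these were drawn from the members with the smallest p under anti-Dll4. In the antibody comparison Gp1bb and Tubb1 were given per library outside this rule. Alternatives were RLE and upper-quartile scaling, no filter, DESeq2 1.42.0, a test against a fold of 1.5, globin genes taken out, a replicate block, only the libraries compared, and left-out libraries. Promoter sequences came from the RefSeq table for GRCm38.p6. Protein sequences of the chemokines were not used here, and some list members are counted but not reported here by name.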

Additional observations from a re-analysis of the deposited data

Results flagged for a closer look

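Among 113 genes with values per library, 236 groups of 4 libraries were screened for a library far from the other 3 of its group, and 19 were found. For normally spread values, chance alone marks about 1 in 20 groups. That share does not hold for Ptprc, C1qc, Ccl3 and Hsd3b6, where the other 3 libraries were at 0. Kit+ CD45+ replicate 1 was the low library for Ilk (188 CPM against 245 to 256 in the others), Tnfrsf1a (45.1 against 84.6 to 88.1), Nrp1 (25.7 against 42.5 to 43.6) and Flt4 (9.69 against 18.2 to 19.8), and the high one for Ms4a3 (28.1 against 0.912 to 3.56). This is the library that stood apart from its group over all counts. Kit+ CD45+ replicate 2 was high for Tal1 (18.7 CPM against 8.00 to 8.94). Kit+ CD45+ replicate 3 was high for Mmp9 (8.95 CPM against 1.86 to 2.88), low for Erg (10.8 against 16.8 to 17.98) and Jag1 (1.46 against 4.56 to 5.12), and the single library with a read of Hsd3b6 (0.0860). In Kit- CD41+, replicate 1 was low for the erythroid genes Alas2 (375 CPM against 749 to 799.5) and Trim10 (15.8 against 29.1 to 30.8) and high for Acvrl1 (1.31 against 0.111 to 0.209). Kit- CD41+ replicate 2 was high for Gfi1b (698 CPM against 564 to 574) and the single library with Ccl3 (0.705). Kit- CD41+ replicate 4 was low for Gp6 (128 CPM against 162 to 167), high for Fdps (40.6 against 29.3 to 30.8), and the single library with reads of Ptprc (0.890) and C1qc (0.667), genes of leukocytes and macrophages. In each of these genes the lowest library of the higher population stayed above the highest of the other, except Ms4a3.

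The population contrast of Cacna2d3 differed between the antibodies by a test of that difference (log2 -7.18, edgeR adjusted p = 0.0314). That fitted value is set against a group at 0 counts, and no gene passed with a replicate block, with the 16 libraries alone or with any 1 of 10 libraries left out. Without replicate 1 of all groups 1 gene passed, in the other direction.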

How the results depend on the processing

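The alternatives other than left-out libraries gave 5459 to 6225 genes under anti-Dll4, except the test against a fold of 1.5, which called 3401 there and 3437 under IgG. The share of calls higher in Kit+ CD45+ was 54.1%, and 49.5% to 56.3% with no filter, RLE or upper-quartile scaling. Leaving out 1 replicate number gave 4322 to 5606 genes under anti-Dll4 and 4529 to 5036 under IgG, and leaving out 1 library 5042 to 5795 and 5165 to 5486. For the difference between antibodies, DESeq2 called 5 genes and a fit of the 16 libraries called 0, and left-out libraries gave 0 to 2.

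Libraries of the same replicate number correlated in their deviations from the group means by 0.128, 0.0492, 0.0821 and -0.0326 under anti-Dll4. Under IgG the values were 0.0491, 0.0233, 0.0602 and 0.105. Only 0.128 and 0.105 were over 0.1. The labels do not say that a number marks shared embryos or a sort, although 6 of 8 Kit+ CD45+ libraries correlated best with their own number and same-numbered libraries matched in sex. With a replicate block 6132 genes passed under anti-Dll4, 6138 under IgG and 0 for the difference between antibodies, and 3 neutrophil granule, 5 S phase and 1 epithelium and liver genes passed.

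Against a fold of 1.5, 5 lymphoid, 2 Notch machinery, 10 cholesterol synthesis, 0 S phase, 0 G2 and mitosis, 5 immediate early, 1 epithelium and liver and 2 autophagy and fission genes passed. With no filter 7 neural genes passed, with globin genes taken out 1 epithelium and liver gene, and with the 8 libraries alone 1 germ cell gene. Left-out libraries gave 3 to 5 neutrophil granule, 5 to 8 lymphoid, 2 to 8 Notch machinery, 3 to 5 chemokine receptor, 1 to 5 S phase, 4 to 8 G2 and mitosis, 4 to 11 immediate early, 1 to 2 epithelium and liver, 2 to 5 neural and 1 to 2 germ cell genes. Reversed values were those of Cdh1 (log2 -5.63 to 0.47 with left-out libraries, 0.47 without replicate 2 of all groups and 0.07 without Kit- CD41+ replicate 2), Dppa5a (log2 -1.97 to 0.00, 0.00 without replicate 1 of all groups or of Kit- CD41+) and the mitochondrial share (-0.0179 percentage points with globin genes taken out); the cause was not tested. Genes with a few counts per library are limited by depth.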
